A study of Mus musculus with 10 samples.

Results

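The primary cilium is a single, microtubule-based projection of the cell surface on which vertebrate cells receive Hedgehog (Hh) signals. The genes described here are 39 mouse genes that build the cilium or pass the Hh signal along it, chosen by name: all genes named Ift or Bbs followed by a number, and 18 further named genes, of which Tctn2 is not analysed here. They are 39 of 33641 gene symbols, and 226 of 105129 transcripts. By textbook role they were sorted into 11 genes of intraflagellar transport complex B (IFT-B), 3 of complex A (IFT-A), 3 ciliary motors, 8 genes of the BBSome and its chaperonins, 7 of the transition zone and 7 that handle Hh signalling components inside the cilium.

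The libraries were bulk polyA RNA-seq of the mandibular prominence (MNP), the embryonic primordium of the lower jaw, dissected at embryonic day 10.5 from embryos on a CD1 background. The study asked how the Gli transcription factors, which carry the Hh signal into the nucleus, and Hand2, a basic helix-loop-helix factor, act together in this tissue. The WT libraries were labelled Wild-type, and their label names no floxed allele and no Cre. Hand2 cKO was Hand2 f/f with Wnt1-Cre, and Gli2/3 cKO was Gli2 f/f and Gli3 f/f with Wnt1-Cre. Wnt1-Cre acts in the neural crest lineage, so epithelium, endothelium and blood in the dissected tissue kept the targeted genes, and the presence of Cre cannot be told apart from the deletions. Analysed here were 6 of 10 labelled samples: 2 of WT (WT 3 and 4), 3 of Hand2 cKO (1, 2 and 3) and 1 of Gli2/3 cKO (number 3). The sources used here do not say whether embryos were pooled for a library, so p-values measure the spread between these libraries, which may be technical in part.

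Cargo moves along the cilium on IFT trains. The kinesin-2 motor carries IFT-B trains out to the tip, a dynein carries trains back with IFT-A, and the BBSome helps membrane proteins leave. The transition zone at the base gates what enters. Without the Hh ligand, the receptor Patched keeps Smoothened out of the cilium and Gli proteins are processed to repressors; with ligand, Smoothened and the Gli proteins gather there, and loss of IFT genes is known to disturb both the activator and the repressor forms of Gli in the face and limb. Cilium genes are commonly switched on by RFX transcription factors, which bind a paired motif, the X-box.

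As the cilium genes share this route of transcriptional control by textbook knowledge, their promoters were searched for the X-box letters. RefSeq windows (build GRCm38.p6) around the start of transcription were matched for 36 of the 39 genes, and Ift122, Ift80 and Ift81 were not matched. The pair GTTNCC and GGNAAC, 0 to 3 bases apart, which reads the same on both strands, lay in 5 of 36 windows (13.9%), against 0.936% of 27025 genes with a window. Stretches of 30 bases are shown for 4 genes because they hold the motif in full, with the pair in capitals, each 5′ to 3′ on the strand of its gene:
Bbs7: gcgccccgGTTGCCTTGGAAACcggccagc
Mks1: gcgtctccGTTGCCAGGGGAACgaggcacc
Tctn1: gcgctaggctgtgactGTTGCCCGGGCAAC
Tctn3: ctcccagcgGTTGCCAGGTAACgggaacca

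The stretch of Bbs7 was at chr3:36613489-36613518 (minus strand), with the middle of the pair at -114 from the RefSeq start. That of Tctn3 was at chr19:40612351-40612380 (minus strand, -134) and that of Mks1 at chr11:87853183-87853212 (plus strand, -17). In GENCODE M21 these 3 overlapped no exon of a coding transcript of their gene. The stretch of Tctn1, at chr5:122264411-122264440 (minus strand, 43 bases past the start), lay wholly in a first exon and its 5′ UTR. Of these 4, Tctn1 alone carried both half-sites without a variable letter, as 0.189% of genes did. The single half-site GTTGCC, on either strand and including the pairs above, lay in 17 of 36 windows (47.2%) and in 14.1% of all genes. The Gli 8-mer GACCACCC was in 0 of 36 windows, on either strand, and in 0.933% of all genes, and the E-box CANNTG, the motif of basic helix-loop-helix factors, was in 63.9% and 74.99%. These are matches of letters and not measured binding.

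The libraries held 21420197 (WT 4) to 53326697 (Hand2 cKO 1) estimated counts, and levels are given as CPM, counts scaled to a library total of 1000000, after trimmed-mean (TMM) scaling. The 39 cilium genes together took 1271 CPM in Hand2 cKO 2 and 1306 to 1353 CPM in the other 5 libraries. Hand2 was at 174 and 209 CPM in the WT pair, at 13.4, 25.5 and 15.6 CPM where it was deleted and at 144 CPM in the Gli2/3 cKO library, a log2 fold change of -3.40 ± 0.30 in Hand2 cKO (edgeR, adjusted p = 0.0580; DESeq2, adjusted p = 4.84e-22). In the same order, Gli2 was at 122 and 105, at 119, 80.2 and 122, and at 58.3 CPM, and Gli3 at 176 and 145, at 195, 114 and 137, and at 80.2 CPM. Summed markers of neural crest mesenchyme (8 genes, none under 1 CPM in every library) lay at 1465 to 1776 CPM, of epithelium (8) at 276 to 328, of endothelium (5) at 154 to 214, of neural cells (7) at 20.6 to 24.5 and of muscle precursors (5) at 5.13 to 8.84 CPM, with 1 neural and 2 muscle precursor genes under 1 CPM in every library. Erythroid markers (9) ran from 2578 CPM in WT 3 to 12080 CPM in WT 4, with Hand2 cKO 2 at 8069 CPM; their part in the results below was not tested. In bulk RNA, fewer cells of a type and less RNA per cell cannot be told apart.

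One library stood apart in these genes before genotype was considered. Relative to the mean of the other libraries, Hand2 cKO 2 fell by 0.45 on the log2 scale for each doubling of transcript length over the 39 cilium genes (Pearson r = -0.89, Spearman rho = -0.87, a description over genes of 1 library), and by 0.45 over 12278 genes in all. All 9 cilium genes with transcripts under 2000 bases were above the other libraries (median 0.60), and all 11 of 4000 bases or more were below (median -0.42). Of the 19 in between, 8 were above and 11 below. Dync2h1, the longest at 13256 bases, deviated by -1.13 and Ift27, at 1013 bases, by 0.92. The other libraries had slopes between 0.03 and 0.18, the steepest in WT 3. Hand2 cKO 2 was part of the mean that each of these was set against, which tilts their slopes upward. Hand2 cKO 2 was the highest of 6 libraries for 12 cilium genes and the lowest for 18, so values without it are given for each complex and for many of the genes below.

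**Figure D1:**
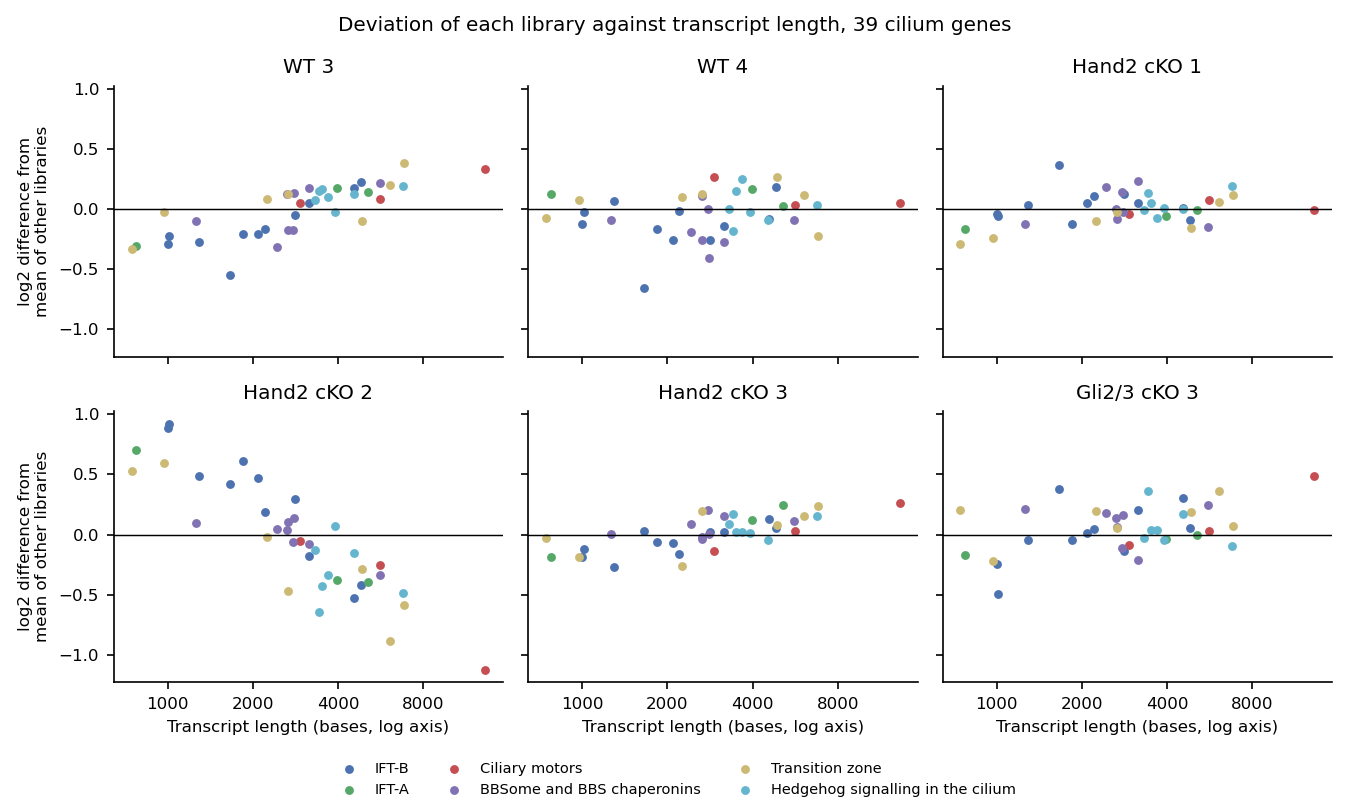
Each panel is a library and each point a cilium gene, with the mean transcript length in bases on a log axis and the log2 difference of its CPM from the mean of the other 5 libraries; colours mark complexes. In Hand2 cKO 2 the points descend from 0.92 (Ift27) to -1.13 (Dync2h1), while the other panels have slopes between 0.03 and 0.18 per doubling. The mean used in those other panels includes Hand2 cKO 2.

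All 39 cilium genes passed the filter on low counts, and none was under 1 CPM in any library. To compare genes with each other, levels were also computed per length, as TPM, in which transcript counts are divided by transcript length and scaled to a common total. In WT the cilium genes had a median of 21.8 TPM, against 12.4 TPM over 17399 tested genes with a length, and ran from 5.38 TPM (Bbs10) to 114 TPM (Ift46), the 38.8th to the 90.7th percentile of tested genes. IFT-B genes had a median of 42.9 TPM and a range of 21.1 to 114 TPM, all above the 8 BBSome and chaperonin genes, which had a median of 10.5 TPM and a range of 5.38 to 17.1 TPM. With the longest coding transcript as each gene's length, the groups overlapped slightly, at 14.2 to 60.2 TPM and 6.53 to 15.4 TPM, and Ift46 came to 32.0 TPM, so its leading place rests on counts assigned to short transcripts. The Hh signalling genes had a median of 31.3 TPM, IFT-A 28.4, the transition zone 18.3 and the motors 15.6 TPM.

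Within each complex the highest and the lowest gene by these lengths were separated in both WT libraries. They were picked by the mean of these same libraries, so the separation does not test the ranking. With the longest coding transcript as the length, Ift22 (14.2 TPM), Ift140 (23.8 TPM) and Cep290 (8.39 TPM) were the lowest of IFT-B, IFT-A and the transition zone, and Ift74 (60.2 TPM) and Bbs4 (15.4 TPM) the highest of IFT-B and the BBSome and chaperonins. In IFT-B, Ift46, a core subunit, was at 106 and 122 TPM in WT 3 and 4 and Ift88, the subunit known as Polaris, at 22.6 and 19.5 TPM. In IFT-A, Ift43 was at 30.1 and 35.8 TPM and Ift122, whose loss is known to raise Hh output, at 23.0 and 20.6 TPM. Kif3a, a kinesin-2 motor subunit, was at 39.7 and 42.4 TPM and Dync2h1, the heavy chain of the retrograde dynein, at 11.8 and 9.31 TPM. Bbs2, a BBSome subunit, was at 20.9 and 13.3 TPM, and Bbs10, a chaperonin-like protein needed to assemble the BBSome, at 5.27 and 5.50 TPM. In the transition zone, B9d1 was at 43.3 and 50.5 TPM and Rpgrip1l, a scaffold, at 13.7 and 9.02 TPM. Among the Hh signalling genes, Tulp3, which brings receptors into the cilium together with IFT-A, was at 58.9 and 50.3 TPM, and Arl13b, a small GTPase of the ciliary membrane, at 19.1 and 14.6 TPM.

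**Figure D2:**
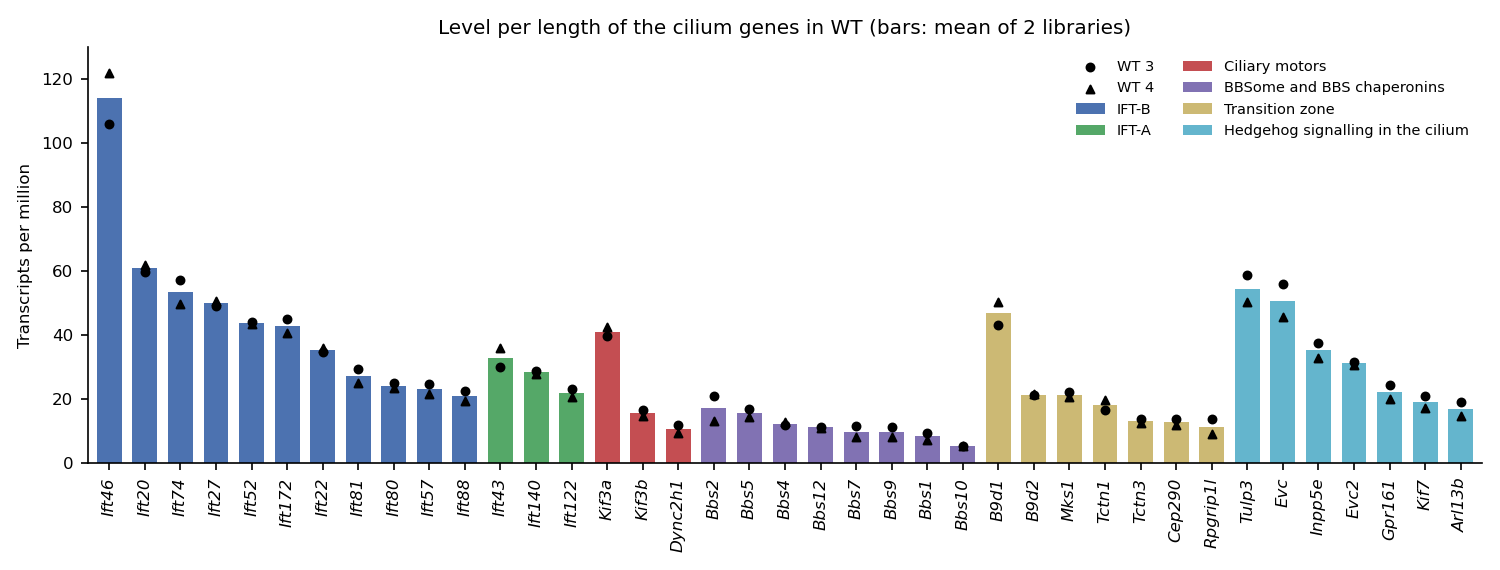
Bars give the mean level per length in TPM over 2 WT libraries, points the single libraries, and colours the complexes. Ift46 is highest at 114 TPM, and the 8 BBSome and chaperonin genes lie between 5.38 and 17.1 TPM.

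Loss of Hand2 in the neural crest was compared with WT to ask whether the machinery that receives Hh depends on Hand2. A gene was called at an adjusted p below 0.05 and a fold above 1.5. By edgeR, 0 of 39 cilium genes were called in Hand2 cKO against WT, where 0.0114% of 17477 tested genes were called and Hand2 itself was not. At an unadjusted p under 0.05, 0 cilium genes were lower (4.02% of all genes) and 1, Ift57, was higher (2.44%). DESeq2 called 1 cilium gene, again Ift57, and 1.04% of all genes. The median log2 fold change of the 39 genes was 0.01, with 19 below and 20 above 0, against -0.0001 over all genes tested.

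The sizes of change that stay compatible with these libraries are given by the intervals. For 35 of the 39 cilium genes the 95% interval of the fold change lay within 2-fold either way (89.7%), against 53.7% of all genes. The genes at large were not matched to the cilium genes in level. The 4 exceptions were Ift57 (0.32 to 1.15 on the log2 scale), Ift20 (-0.31 to 1.13), Ift27 (-0.36 to 1.10) and Dync2h1 (-1.14 to 0.49). In the last 3, Hand2 cKO 2 deviated from the other libraries by 0.88, 0.92 and -1.13. These intervals are not limits of detection, and differences inside them remain compatible with these libraries.

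Ift57, a peripheral IFT-B subunit also known as Hippi (chr16:49699233-49765126, plus strand), differed most. It was at 16.7 and 15.7 CPM in WT 3 and 4, 28.3, 29.2 and 23.3 CPM in Hand2 cKO 1 to 3 and 28.4 CPM in Gli2/3 cKO 3. All 4 mutant libraries lay above both WT libraries, a pattern whose share over all genes was not computed. The log2 fold change in Hand2 cKO was 0.74 ± 0.17 (SE), a 1.67-fold difference with an edgeR adjusted p of 0.526 and a DESeq2 adjusted p of 0.0402. Over 12 alternatives its edgeR or DESeq2 adjusted p ran from 0.0402 to 0.953, and the DESeq2 fit alone called it. Without Hand2 cKO 2 the log2 fold change was 0.66 (adjusted p = 0.302), and with the length trend removed 0.56 (adjusted p = 0.275). An antisense gene, Gm15518, overlaps 7.86% of the exonic bases of Ift57, and as the sources used here do not give the strand setting of the counting, their reads may not be separable.

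**Figure D3:**
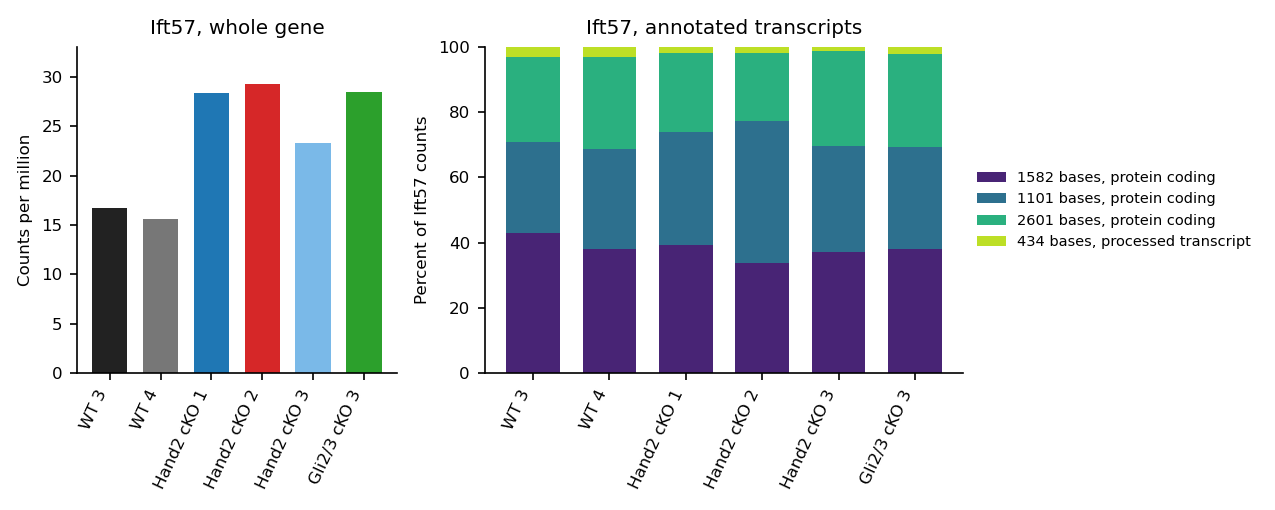
Left, CPM of Ift57 in each library; right, the percent of its counts assigned to each of 4 annotated transcripts. The WT bars are at 16.7 and 15.7 CPM and the 4 mutant bars at 23.3 to 29.3 CPM, with the 1582-base coding transcript holding 33.8% to 43.1% throughout.

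The other IFT-B genes had a range of log2 fold changes in Hand2 cKO from -0.29 to 0.41, and the IFT-B median was 0.25. Ift74 and Ift81 form a pair that binds tubulin. Ift74 was at 53.2 and 51.7 CPM in WT 3 and 4, 61.9, 78.96 and 57.7 CPM in Hand2 cKO 1 to 3 and 60.5 CPM in Gli2/3 cKO 3. Ift81 was at 38.1 and 33.7 CPM in the WT libraries, 42.2, 46.4 and 39.8 CPM in those of Hand2 cKO and 36.2 CPM in that of Gli2/3 cKO. In both genes the Hand2 cKO libraries lay above WT without overlap, and Hand2 cKO 2 was the highest. The log2 fold changes were 0.34 ± 0.18 for Ift74 and 0.25 ± 0.15 for Ift81 (both adjusted p = 0.723). Both came to 0.18 without Hand2 cKO 2, and with coding transcripts only Ift81 came to 0.13. Ift172, a long peripheral subunit, went the other way, at 63.6 and 62.03 CPM in WT 3 and 4, 52.9, 43.8 and 57.4 CPM in Hand2 cKO 1 to 3 and 57.4 CPM in Gli2/3 cKO 3. Its log2 fold change was -0.29 ± 0.16 (adjusted p = 0.723), and every Hand2 cKO library was below both WT libraries. Ift88, loss of which abolishes cilia, was at 28.4 and 25.3 CPM in the WT libraries, 28.3, 24.8 and 27.8 CPM in those of Hand2 cKO and 31.03 CPM in that of Gli2/3 cKO. The groups overlapped, with a log2 fold change of 0.01 ± 0.15 and an interval of -0.36 to 0.37.

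Ift46, Ift52 and Ift20 are core or membrane-linked IFT-B subunits, and Ift27 and Ift22 are Rab-like small GTPases of the complex. Ift46 was at 49.3 and 60.0 CPM in WT 3 and 4, 58.9, 76.5 and 49.3 CPM in Hand2 cKO 1 to 3 and 56.1 CPM in Gli2/3 cKO 3. Ift27 was at 23.4 and 26.2 CPM in the WT libraries, 25.7, 45.4 and 24.9 CPM in those of Hand2 cKO and 19.97 CPM in that of Gli2/3 cKO. In both, Hand2 cKO 2 was the highest library and the other 2 Hand2 cKO libraries lay within or near the WT values. Ift20 gave 28.3 ± 1.66 CPM (SD, n = 2) in Hand2 cKO without Hand2 cKO 2, and 35.6 ± 12.8 CPM (n = 3) with it, against 26.8 ± 1.77 CPM in WT (n = 2). Ift22 gave 18.7 ± 0.47 CPM without it and 21.9 ± 5.47 CPM with it, against 17.8 ± 0.28 CPM in WT. The IFT-B median of 0.25 was 0.05 without Hand2 cKO 2, and likewise 0.05 with the length trend removed.

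The 3 IFT-A genes had log2 fold changes of -0.22 to 0.21 in Hand2 cKO, and the 3 motors -0.33 to -0.09. The medians of -0.10 and -0.20 were -0.09 and -0.07 without Hand2 cKO 2. Ift122 was at 41.4 and 41.2 CPM in WT 3 and 4, 36.1, 30.02 and 39.99 CPM in Hand2 cKO 1 to 3 and 36.6 CPM in Gli2/3 cKO 3, lower in each Hand2 cKO library than in WT. Kif3a was at 51.5 and 58.2 CPM in the WT libraries, 48.8, 48.5 and 46.1 CPM in those of Hand2 cKO and 47.5 CPM in that of Gli2/3 cKO. Its Hand2 cKO libraries did not overlap WT (log2 fold change -0.20 ± 0.13, adjusted p = 0.723). Kif3b, its partner in kinesin-2, had means of 43.0 ± 0.89 CPM (WT) and 40.5 ± 4.01 CPM (Hand2 cKO). Dync2h1 was at 62.3 and 52.9 CPM in WT 3 and 4, 51.2, 26.7 and 59.7 CPM in Hand2 cKO 1 to 3 and 67.9 CPM in Gli2/3 cKO 3. Here Hand2 cKO 2 alone was far below the rest, and the Hand2 cKO mean was 45.9 ± 17.1 CPM with it and 55.4 ± 5.99 CPM without it, against 57.6 ± 6.66 CPM in WT.

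The BBSome and chaperonin genes had a median of 0.09 (0.04 without Hand2 cKO 2) and a range of -0.15 to 0.30. Bbs12, a chaperonin-like protein, was at 12.8 and 13.8 CPM in WT 3 and 4, 17.1, 15.8 and 16.2 CPM in Hand2 cKO 1 to 3 and 17.1 CPM in Gli2/3 cKO 3. All 4 mutant libraries were above both WT libraries, and here too the share of all genes with this pattern was not computed. The log2 fold change in Hand2 cKO was 0.30 ± 0.16 (adjusted p = 0.723). Bbs1, a BBSome subunit that binds the small GTPase Arl6, was at 25.03 and 20.9 CPM in the WT libraries, 20.3, 18.2 and 23.6 CPM in those of Hand2 cKO and 25.4 CPM in that of Gli2/3 cKO, and the groups overlapped. Bbs2 was at 20.3 and 14.8 CPM in WT 3 and 4, 18.6, 20.3 and 18.8 CPM in Hand2 cKO 1 to 3 and 20.6 CPM in Gli2/3 cKO 3. The WT libraries spanned most of that range. Bbs10 was the lowest cilium gene, at 6.93 and 7.69 CPM in the WT libraries, 8.34, 7.42 and 8.64 CPM in those of Hand2 cKO and 7.19 CPM in that of Gli2/3 cKO. Bbs4, Bbs5, Bbs7 and Bbs9, the other BBSome subunits here, had WT means of 8.34 to 15.8 CPM and Hand2 cKO means of 8.76 to 16.3 CPM.

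In the transition zone the median was -0.17 (-0.05 without Hand2 cKO 2) and the range -0.27 to 0.26. Mks1, a B9-domain protein, was at 19.9 and 20.1 CPM in WT 3 and 4, 17.9, 18.7 and 16.2 CPM in Hand2 cKO 1 to 3 and 21.2 CPM in Gli2/3 cKO 3. The Hand2 cKO libraries lay below WT, by -0.18 ± 0.15 on the log2 scale (adjusted p = 0.736). B9d1, another B9-domain protein, was at 14.7 and 17.1 CPM in the WT libraries, 15.1, 24.3 and 17.5 CPM in those of Hand2 cKO and 20.1 CPM in that of Gli2/3 cKO. Its Hand2 cKO mean was 16.3 ± 1.75 CPM without Hand2 cKO 2 and 19.0 ± 4.78 CPM with it. Cep290, a large protein that links microtubules to the membrane, had means of 28.1 ± 0.96 CPM (WT), 23.3 ± 6.96 CPM (Hand2 cKO) and 27.3 ± 0.98 CPM (without Hand2 cKO 2). Rpgrip1l was at 36.3 and 25.6 CPM in WT 3 and 4, 31.1, 20.7 and 33.4 CPM in Hand2 cKO 1 to 3 and 30.4 CPM in Gli2/3 cKO 3, and the WT libraries spanned the 2 Hand2 cKO libraries other than Hand2 cKO 2. Tctn1 and Tctn3, of the tectonic family, and B9d2 had log2 fold changes of -0.17, -0.17 and 0.06. Of the exonic bases of Tctn1, 25.5% are overlapped by Hvcn1 and Gm15481 on the opposite strand. The Hand2 cKO mean of B9d2 without Hand2 cKO 2 was 8.499 CPM, below the 9.79 CPM of WT, and that of Tctn3 was 15.3 CPM against 15.6 CPM.

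The 7 Hh signalling genes had a median of -0.07 (-0.01 without Hand2 cKO 2) and a range of -0.25 to 0.04. Kif7, the ciliary tip kinesin that controls Gli processing, was at 45.3 and 39.9 CPM in WT 3 and 4, 42.1, 38.5 and 40.96 CPM in Hand2 cKO 1 to 3 and 46.4 CPM in Gli2/3 cKO 3. Gpr161, a receptor that holds Hh output down through cAMP, was at 73.97 and 67.3 CPM in the WT libraries, 74.05, 49.8 and 72.4 CPM in those of Hand2 cKO and 62.6 CPM in that of Gli2/3 cKO. Arl13b was at 25.8 and 21.3 CPM in WT 3 and 4, 25.6, 16.3 and 26.1 CPM in Hand2 cKO 1 to 3 and 29.2 CPM in Gli2/3 cKO 3. In these 3 genes the groups overlapped, and the log2 fold changes were -0.07 ± 0.14, -0.11 ± 0.21 and -0.05 ± 0.25 (adjusted p = 0.865, 0.866 and 0.946). Without Hand2 cKO 2 the signs of Gpr161 and Arl13b turned, to 0.04 and 0.12. The exonic bases of Kif7 are overlapped over 20.3% by genes on the opposite strand.

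Inpp5e, a phosphoinositide phosphatase that keeps the ciliary membrane distinct, was at 51.1 and 55.9 CPM in the WT libraries, 46.3, 39.7 and 48.9 CPM in those of Hand2 cKO and 49.4 CPM in that of Gli2/3 cKO. Every Hand2 cKO library was below both WT libraries (-0.25 ± 0.15, adjusted p = 0.723), but the log2 fold change was -0.047 with coding transcripts only. Of its exonic bases, 20.3% are overlapped by Pmpca on the opposite strand. Evc and Evc2 form the complex that binds Smoothened at the base of the cilium. Evc was at 61.1 and 60.6 CPM in WT 3 and 4, 57.2, 43.3 and 56.3 CPM in Hand2 cKO 1 to 3 and 56.8 CPM in Gli2/3 cKO 3. Evc2 was the steadiest cilium gene, at 46.1 and 46.03 CPM in the WT libraries, 46.9, 48.7 and 46.9 CPM in those of Hand2 cKO and 45.5 CPM in that of Gli2/3 cKO, a ratio of 1.07 between the highest and the lowest library. Tulp3, the highest of the group, was at 82.3 and 78.8 CPM in WT 3 and 4, 78.3, 72.95 and 82.8 CPM in Hand2 cKO 1 to 3 and 77.5 CPM in Gli2/3 cKO 3. Its Hand2 cKO libraries overlapped WT.

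Complete separation of the groups was as common among cilium genes as among genes at large. In 6 cilium genes (Evc, Ift122, Ift172, Inpp5e, Kif3a and Mks1) all Hand2 cKO libraries were below both WT libraries (15.4%), against 15.7% of all tested genes, and in 6 (Bbs12, Evc2, Ift22, Ift57, Ift74 and Ift81) all were above, against 15.3%. Without Hand2 cKO 2 the counts were 7 lower and 7 higher (17.9% each), against 22.3% and 23.6% of all genes. Both shares were near or below the background.

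**Figure D4:**
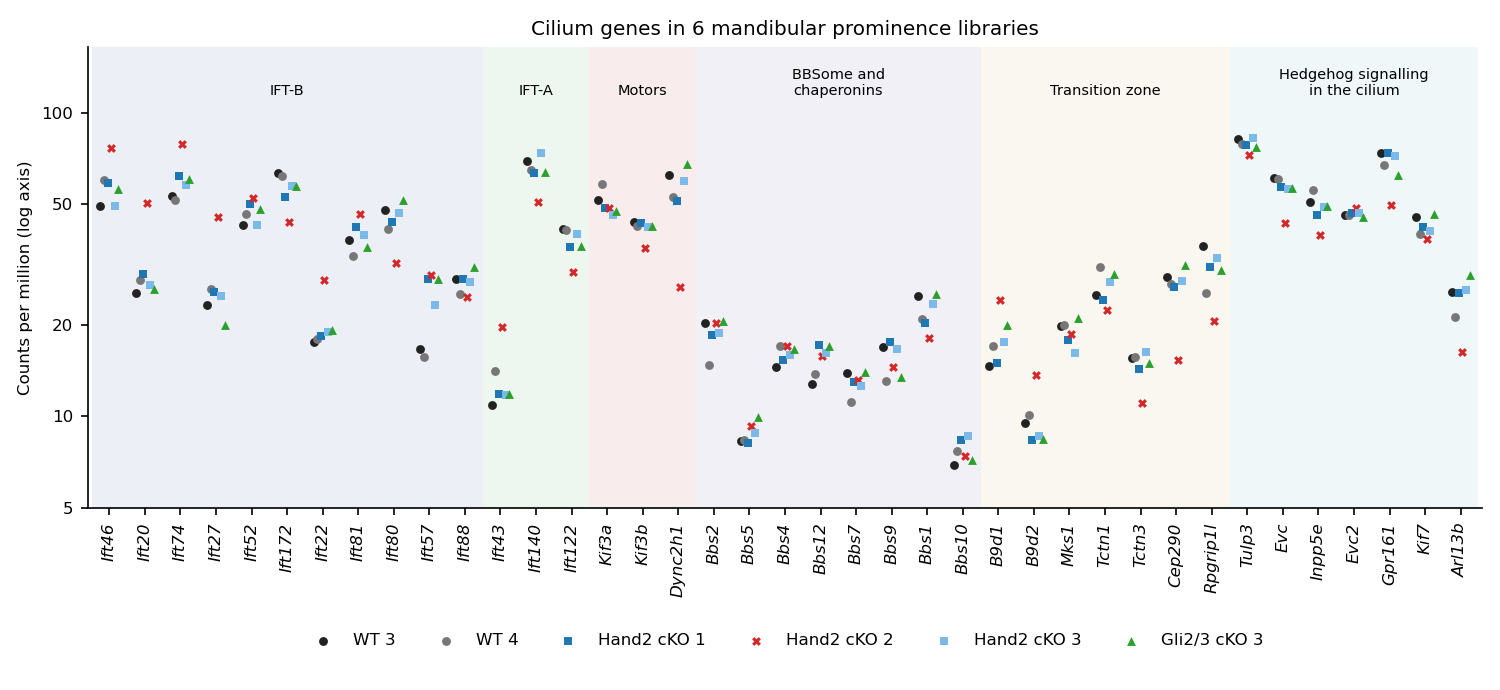
CPM of each cilium gene on a log axis in WT 3 and 4 (circles), Hand2 cKO 1 and 3 (squares), Hand2 cKO 2 (crosses) and Gli2/3 cKO 3 (triangle), ordered by complex and by WT level per length. Most genes form tight clusters, and Hand2 cKO 2 lies outside them at both ends. Ift57 shows 4 mutant libraries above 2 WT libraries, as do Bbs12, Ift22 and Ift74. Evc, Ift122, Ift172, Inpp5e and Kif3a show the 4 below the 2.

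Deletion of Gli2 and Gli3 was compared with WT to ask whether the cilium genes follow the pathway they serve. This comparison rests on 1 Gli2/3 cKO library, which in the fit is assumed to vary like the other groups, and it shares the WT libraries with the comparison above. By edgeR 0 of 39 cilium genes were called (0.0114% of all genes), and by DESeq2 also 0 (0.727%). At an unadjusted p under 0.05, 0 were lower (2.96%) and 1, Ift57, was higher (1.63%). The median log2 fold change was 0.04, with 18 below and 21 above 0, against 0.001 over all genes. In 31 of 39 genes (79.5%) the 95% interval lay within 2-fold either way, against 41.6% of all genes, again not matched in level.

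In the same library Gli1, a direct Hh target and the usual readout of the pathway, was at 25.7 CPM against 110 and 120 CPM in WT, a log2 fold change of -2.16 ± 0.21 (edgeR, adjusted p = 0.129; DESeq2, adjusted p = 1.22e-18). The cilium genes had log2 fold changes from -0.31 (Ift27) to 0.81 (Ift57). Ift57 differed by 0.81 ± 0.22 (interval 0.28 to 1.35, edgeR adjusted p = 0.824, DESeq2 adjusted p = 0.277), and Bbs12 by 0.36 ± 0.21 (adjusted p = 1.0). Kif3a was at -0.21 ± 0.18, Bbs5, a BBSome subunit that binds phosphoinositides, at 0.26 ± 0.23, B9d1 at 0.34 ± 0.32 (0.72 with coding transcripts only) and Ift88 at 0.21 ± 0.20. Of the Hh signalling genes, Kif7 was at 0.12 ± 0.18, Gpr161 at -0.17 ± 0.29 and Arl13b at 0.31 ± 0.33. The adjusted p of these 7 genes was 1.0 throughout, which does not show that they were equal. By complex, the medians were 0.11 for IFT-B, -0.08 for IFT-A, -0.02 for the motors, 0.15 for the BBSome and chaperonins, 0.07 for the transition zone and -0.06 for the Hh signalling genes.

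**Figure D5:**
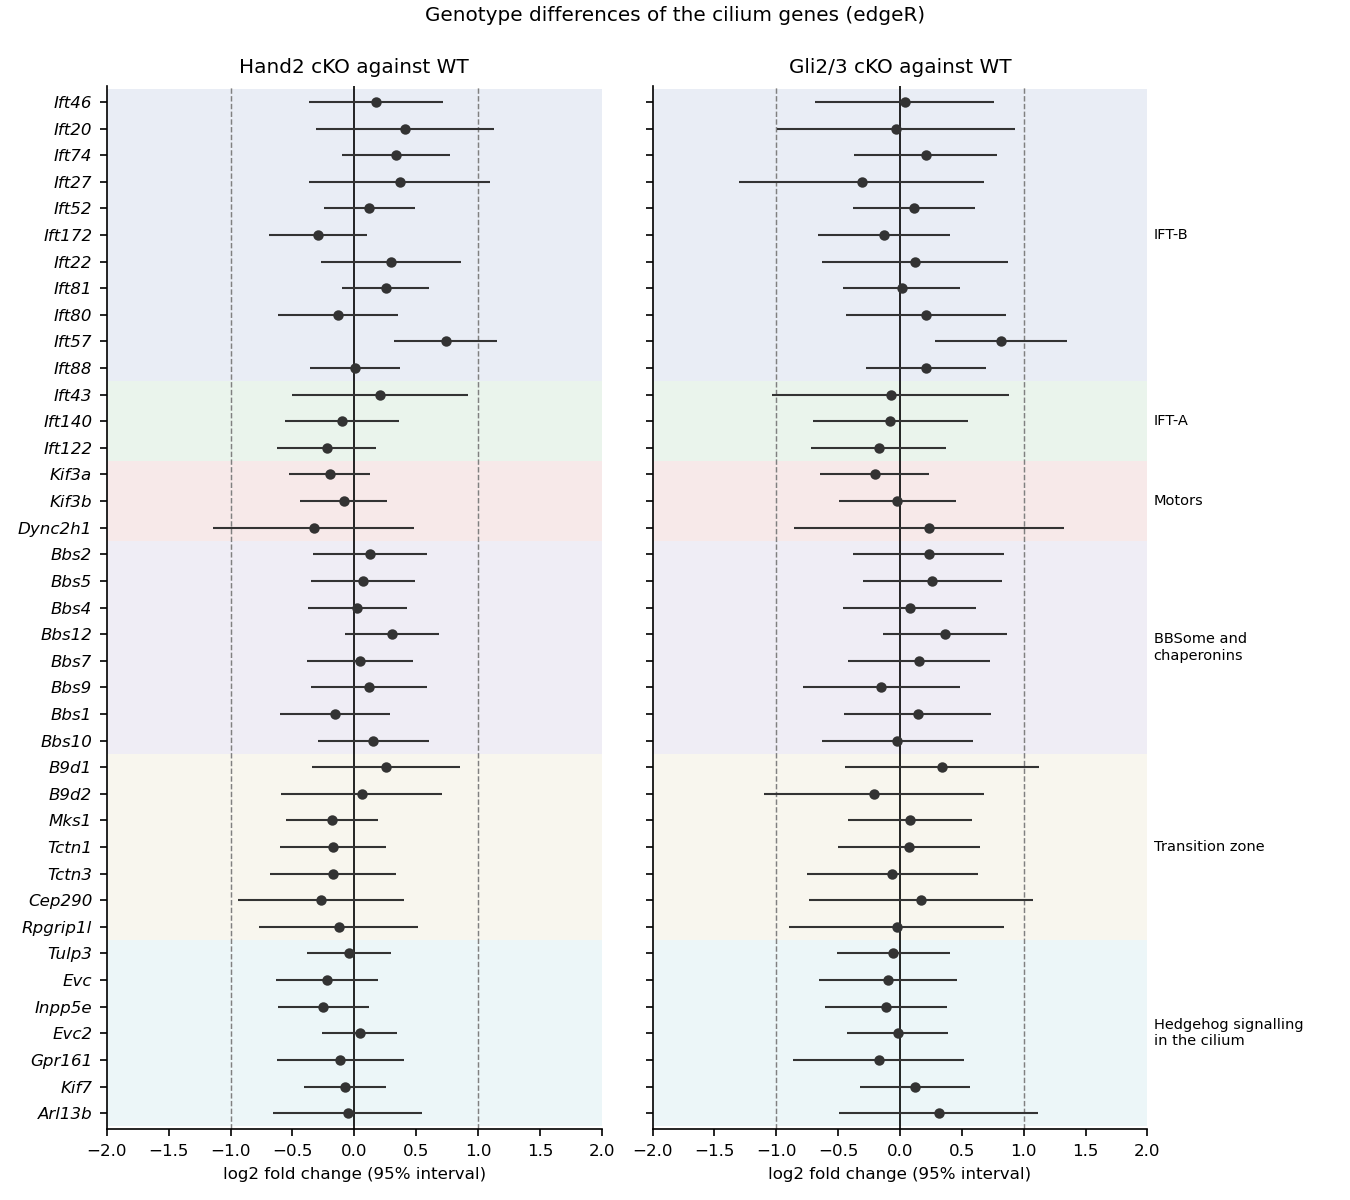
Points give the edgeR log2 fold change of each cilium gene and lines its 95% interval, for Hand2 cKO (left) and Gli2/3 cKO (right) against the same WT libraries; dashed lines mark 2-fold. All intervals but that of Ift57 cross 0 in both panels, and those of Gli2/3 cKO, with 1 library, are wider.

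Between the mutants, in Gli2/3 cKO against Hand2 cKO, edgeR called 0 of 39 cilium genes (0.0343% of all genes) and DESeq2 0 (0.83%), and 0 had an unadjusted p under 0.05 (5.48%). The median log2 difference was 0.06, against -0.02 over all genes. Ift27 showed the smallest p, at -0.68 ± 0.39, and the next were Mks1 (0.26 ± 0.19), Dync2h1 (0.57 ± 0.41), Ift80, a peripheral IFT-B subunit (0.34 ± 0.25), Bbs1 (0.30 ± 0.23) and Ift81 (-0.24 ± 0.19), all with an adjusted p of 0.906. Kif7 was at 0.19 ± 0.17, Gpr161 at -0.06 ± 0.27, Ift88 at 0.20 ± 0.19 and Arl13b at 0.37 ± 0.31. With the length trend removed the differences of Ift27 and Dync2h1 were -0.33 and 0.23. They were -0.34 and 0.30 without Hand2 cKO 2, and those of Ift80, Arl13b and Gpr161 were 0.19, 0.18 and -0.22. With coding transcripts only, Mks1, Ift80 and Ift81 came to 0.11, 0.14 and -0.09. Ift80 was at 48.04 and 41.4 CPM in the WT libraries, 43.7, 32.1 and 46.9 CPM in those of Hand2 cKO and 51.7 CPM in that of Gli2/3 cKO, lowest in Hand2 cKO 2 as other long transcripts were.

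Across all 6 libraries, irrespective of genotype, the highest value of a cilium gene was a median of 1.41 times the lowest, from 1.07 (Evc2) to 2.54 (Dync2h1). In 25 of 39 cilium genes it was under 1.5 times, against 29.4% of all genes tested. Without Hand2 cKO 2 the median ratio was 1.22, and 38 of 39 genes were under 1.5 times, against 54.4% of all genes, with Ift57 the exception at 1.82. The SD of log2 CPM within WT and Hand2 cKO had a median of 0.18 over cilium genes, 0.22 over 6913 genes in the same range of level and 0.29 over all genes tested. Without Hand2 cKO 2 these were 0.09, 0.11 and 0.16.

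At the level of transcripts, 179 of the 226 cilium transcripts were tested among 58855, and 0 were called by edgeR in any of the 3 comparisons, as were 0 of all transcripts. At an unadjusted p under 0.05 there were 1 (0.559%), 5 (2.79%) and 7 (3.91%) cilium transcripts in Hand2 cKO against WT, Gli2/3 cKO against WT and Gli2/3 cKO against Hand2 cKO, against 2.99%, 2.71% and 2.99% of all. The transcript with the largest share of a gene was protein-coding in all 39 genes and held a median of 88.0% of the counts. Of 35 genes with more than 1 transcript, 28 had the same leading transcript in every library. Ift57 divided its counts between 3 coding transcripts, with 38.1%, 34.3% and 25.5% over all libraries, and the transcript of 1101 bases differed by 1.21 ± 0.42 in Hand2 cKO (adjusted p = 0.909). Kif7 was the contrary case, as its leading transcript held 86.02% of the counts in WT 3 and 5.73% in Hand2 cKO 2, while the gene total ran only from 38.5 to 46.4 CPM. The 2 main Kif7 transcripts, of 4577 and 4524 bases, differ little in length, and such estimated shares are uncertain.

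The wider cilium machinery was covered by 53 further genes in 3 lists. These were IFT and BBSome partners (20), transition zone and inversin partners (15) and basal body and ciliogenesis genes (18). Counts for these and the lists below stand beside the shares of all genes given above. In Hand2 cKO these shares were 0.0114% called by edgeR, 1.04% by DESeq2, and 4.02% lower and 2.44% higher at unadjusted p under 0.05. Those of Gli2/3 cKO, with 1 library, are given with its comparison. In both mutants against WT, 0 of the 53 were called by edgeR or DESeq2 and 0 had an unadjusted p under 0.05, and the medians were 0.02 without Hand2 and 0.04 without Gli2 and Gli3. The smallest p values in Hand2 cKO belonged to Kifap3, the adaptor of kinesin-2 (0.26 ± 0.14), and Arl6, the GTPase that recruits the BBSome (0.34 ± 0.19), in the first list, to Nphp4 (-0.44 ± 0.19) and Iqcb1 (0.30 ± 0.16) in the second, and to Rab11a (0.41 ± 0.18) and Sclt1 (0.19 ± 0.14) in the third (all adjusted p = 0.723).

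Of 18 genes of Hh reception and output, edgeR called 0 in either mutant against WT, and DESeq2 called 0 in Hand2 cKO and 1, Gli1, in Gli2/3 cKO. At an unadjusted p under 0.05, 1 gene was higher in Hand2 cKO and 4 were lower in Gli2/3 cKO. The medians were -0.10 and -0.14. Gas1, a co-receptor of Hh, was at 176 and 118 CPM in the WT pair and 223, 233 and 203 CPM with Hand2 deleted (0.57 ± 0.21, adjusted p = 0.723). Of 9 RFX and other ciliogenic factors 7 were tested, with medians of -0.15 and 0.23 and 0 called by either tool. At an unadjusted p under 0.05 there were 0 in Hand2 cKO and 1, Rfx4, in Gli2/3 cKO. Rfx1 was at 55.8 and 55.7 CPM in the WT pair and 43.3, 43.9 and 48.4 CPM with Hand2 deleted (-0.30 ± 0.13, adjusted p = 0.723). Rfx4 was at 0.0585 and 0 CPM in the WT pair and 0, 0.0528 and 0.0241 CPM with Hand2 deleted. With Gli2 and Gli3 deleted it was at 1.07 CPM, in 1 library, and was not called. In that library the 7 neural markers had a median log2 fold change of 0.74 against WT, with 5 above and 2 below 0. The part of neural cells in the Rfx4 value was not tested. Of 15 motile cilium genes, 9 were under 1 CPM in every library, and the list had a sum of 28.1 to 34.2 CPM. Ccdc40 alone was at 12.4 to 19.5 CPM. In either mutant against WT, 0 motile cilium genes were called by either tool, and 0 had an unadjusted p under 0.05.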

How the data were processed

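Genotype labels set the groups, and the replicate number comes from the sample title. Per the study, paired-end reads were aligned to mm10, and abundance was computed in Strand NGS, where DESeq2 was also run; the sources used here do not state its version, annotation or strand setting. The authors deposited estimated counts (expected counts) per transcript, which their program made by dividing reads among the transcripts of a gene. Whole counts had been assumed in the design, so the estimates were added up by gene symbol and then rounded. Depth was 21420197 to 53326697 estimated counts per library. Libraries of 1 group differed by a chi-square over genes of 24.3 to 227 per degree of freedom, so none was a repeat deposit.

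Genes passing filterByExpr (17477) were fitted over all 6 libraries by genotype with TMM scaling and the quasi-likelihood test of edgeR 4.0.16 in R 4.3.3 (3 residual degrees of freedom), with Benjamini-Hochberg adjustment over all genes tested. Calls required an adjusted p below 0.05 and a fold above 1.5. Alternatives were DESeq2 1.42.0, other scalings, no filter, coding transcripts only, removal of the trend on transcript length, only the 2 groups compared, and leaving out each library. TPM and exon overlaps used GENCODE M21, in which 103635 transcripts were matched without the version number, and TPM rests on annotated lengths, not on those of the RNA.

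Full statistics were given for the 6 members with the smallest unadjusted p in a comparison, those called by either tool, and Kif7, Gpr161, Ift88 and Arl13b, and levels per library for these and for the highest and the lowest gene of each complex. Further members were described after their values were seen. Other lists were named by up to 2 genes with the smallest p. The members and lists were chosen with earlier results of these data known. One promoter sequence and 1 gene of the lists are not reported here.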

Additional observations from a re-analysis of the deposited data

How the results depend on the processing

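No paired analysis was possible because the libraries analysed share only replicate number 3 between groups. The 3 counts of cilium genes called were 0 under each alternative, except that DESeq2 called 1 gene, Ift57, in Hand2 cKO against WT, and counts of cilium transcripts were 0 with and without the filter. In all, 410 of 435 values kept their direction and their side of the threshold, or moved by less than the spread. Scaling by the library total alone moved the median of all genes by -0.12 and that of the cilium genes to -0.11 in Hand2 cKO against WT, and the cilium median to 0.15 in Gli2/3 cKO against Hand2 cKO. Leaving out single libraries gave a cilium median of -0.078 (without WT 4) to 0.031 in Hand2 cKO against WT. The signs that turned belonged to genes whose differences were near 0. In Hand2 cKO against WT, Ift88 came to -0.11 with the library total alone, -0.013 with the length trend removed, -0.015 with coding transcripts only, -0.0019 with the 2 groups alone, and -0.073 to 0.090 without single libraries. With the length trend removed Kif7 came to 0.0070 and Gpr161 to 0.057. Without single libraries Kif7 ran from -0.16 to 0.023, Gpr161 from -0.22 to 0.038 and Arl13b from -0.18 to 0.12. In Gli2/3 cKO against Hand2 cKO, Gpr161 came to 0.019 with the library total alone and ran from -0.22 to 0.034 without single libraries. Apart from the length trend and fewer libraries, the cause was not tested. Levels per length of Ift46, Ift43, Ift122 and Bbs10 moved to 32.0, 39.6, 24.5 and 6.53 TPM with the longest coding transcript. The Gli2/3 cKO comparisons rest on 1 library, and the effect of depth was not tested.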
